A study of Mus musculus with 4 samples.

Results

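The transcripts of 45 genes that act in G2 phase and mitosis were followed through mouse mammary cells with and without ΔNp63, the form of the transcription factor p63 made in basal epithelium. The set was given by name and covers cyclins, mitotic kinases, spindle checkpoint proteins, kinetochore subunits, mitotic kinesins and cytokinesis proteins. All 45 were found among the 54393 gene identifiers of the deposited count table, and all 45 were among the 18917 genes abundant enough to be tested. Each symbol had 1 identifier.

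There were 4 libraries: 2 wild-type (WT) and 2 conditional knockout (cKO), with 1 library of each genotype 10 days after tamoxifen and 1 at 5 weeks. The knockout is written iK14-Cre; DNp63 f/f in the labels, a floxed allele recombined by an inducible Cre under the keratin 14 promoter, which is active in basal cells. The labels give tamoxifen (1.5 mg/ml) for every library and induction at 4 weeks of age, and do not say which of these alleles the WT animals carried. Age at collection was not used, because the protocol gives gland ages of 5 and 35 weeks without saying which library each belongs to. Cells bearing CD45, CD31 or Ter119 were removed by sorting and 100000 cells went into each library. Nothing in the labels says that libraries came from separate animals, so p-values measure only the spread between these libraries. With 1 library per genotype and time point, no like libraries exist to give that spread. In the main fit it is the change of the genotype difference between time points, moderated with information from other genes. In bulk RNA, fewer dividing cells and less mitotic RNA per cell cannot be told apart.

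Mitosis is driven by the kinase CDK1 with its cyclin partners, which is switched on at the end of G2. Polo-like and Aurora kinases then build the spindle, kinesins move chromosomes and microtubules, and the spindle checkpoint holds back the anaphase promoting complex until every kinetochore is attached. Most of these genes are silent in resting cells and are transcribed together late in the cell cycle, by the MuvB complex with B-MYB and FOXM1 acting through promoter elements called CHR and through CCAAT boxes bound by NF-Y. Their summed RNA is widely read as a measure of how many cells in a tissue are dividing, and in the pubertal mammary gland division is concentrated in the growing ducts.

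Promoter sequence is shown first, because these elements are known from many genes of the program. The table of RefSeq promoters (GRCm38.p6) held 38 of the 45 members. It had no entry for Aurkb, Ccna2, Cdc25c, Foxm1, Incenp, Kif20a and Tpx2. The 250 bases before the first listed start site were searched on both strands for the CHR (TTTGAA or TTCGAA), the CCAAT box (CCAAT) and E2F elements (TTCCCGC, or TTCGCGC, or TTGCCGC, or TTGGCGC), none of which overlap one another in the sequences printed here. Below are the 3 members with the smallest genotype p among those in the table, followed by the 2 with the largest. CHR and CCAAT matches are in capitals, in either orientation, and each sequence runs 5′ to 3′ toward the start site.
Cdc20 (minus strand, chr4:118437344-118437593): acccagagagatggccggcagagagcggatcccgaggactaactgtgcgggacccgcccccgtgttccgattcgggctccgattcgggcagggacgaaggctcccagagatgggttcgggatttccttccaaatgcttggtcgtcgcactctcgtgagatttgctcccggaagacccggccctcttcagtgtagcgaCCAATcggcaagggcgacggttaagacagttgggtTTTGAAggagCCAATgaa
Mki67 (minus strand, chr7:135716380-135716629): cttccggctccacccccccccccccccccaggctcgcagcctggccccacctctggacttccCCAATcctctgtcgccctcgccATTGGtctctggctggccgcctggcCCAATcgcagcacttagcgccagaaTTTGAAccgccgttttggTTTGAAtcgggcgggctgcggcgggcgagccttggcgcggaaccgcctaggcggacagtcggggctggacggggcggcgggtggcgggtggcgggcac
Kif22 (minus strand, chr7:127042421-127042670): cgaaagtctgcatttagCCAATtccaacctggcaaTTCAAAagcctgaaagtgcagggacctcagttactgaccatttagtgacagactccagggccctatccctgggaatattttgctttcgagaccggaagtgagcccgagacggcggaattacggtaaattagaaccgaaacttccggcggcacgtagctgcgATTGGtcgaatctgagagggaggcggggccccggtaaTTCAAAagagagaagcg
Mad2l1 (plus strand, chr6:66534971-66535220): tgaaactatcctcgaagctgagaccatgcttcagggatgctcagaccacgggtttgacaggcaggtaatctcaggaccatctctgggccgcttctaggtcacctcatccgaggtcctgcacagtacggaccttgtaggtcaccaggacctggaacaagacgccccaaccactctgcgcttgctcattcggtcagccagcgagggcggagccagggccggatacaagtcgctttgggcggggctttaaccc
Pttg1 (minus strand, chr11:43425982-43426231): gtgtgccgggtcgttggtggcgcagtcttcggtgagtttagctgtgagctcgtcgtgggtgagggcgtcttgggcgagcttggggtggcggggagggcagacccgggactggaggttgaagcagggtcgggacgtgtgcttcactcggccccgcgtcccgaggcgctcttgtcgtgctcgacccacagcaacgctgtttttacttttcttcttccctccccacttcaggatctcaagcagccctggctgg
In Cdc20 a CHR began 18 bases before the start site, between CCAAT boxes at 53 and 8 bases. Mki67 had CHR matches at 116 and 98 bases with 3 CCAAT boxes upstream of them. Kif22 had CHR matches at 215 and 17 bases and CCAAT boxes at 233 and 54 bases. The windows of Mad2l1 and Pttg1 held no match to the CHR, CCAAT or E2F letters. None of the windows shown borders the gene start annotated in GENCODE M21. Pttg1 spans 43420250 to 43426251 there, so its window lies inside the gene. Mad2l1 starts at 66535390, beyond the end of its window. Cdc20 spans 118432901 to 118437352, so its CCAAT box at 8 bases lies inside the gene. Kif22 spans 127027729 to 127042471, so its CHR at 17 bases does too. Mki67, on the minus strand, reaches only to 135716361, short of its window. The sequence directly before the annotated starts of Pttg1, Mad2l1 and Mki67 was not searched.

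Across the 38 promoters, 27 (71.1%) held a CCAAT box, against 36.0% of the 12495 promoters of tested genes and 34.5% of all 27025 promoters in the table with 1 taken per gene. A CHR was present in 13 (34.2%), against 12.9% and 17.4%. Both elements were present in 11 (28.9%), against 4.99% and 6.21%, and these 11 include Ccnb2, Cdk1, Bub1b, Ube2c, Ect2 and Top2a. E2F letters were found in 5 members (13.2%), close to the 13.0% of tested genes. Bub3 and Kif11 also held both elements, with genotype log2 fold changes of -0.29 and -0.63 and unadjusted p-values of 0.245 and 0.102. Of the 38 promoters, 9, among them those of Birc5, Nusap1, Anln and Ndc80, held none of the letters searched. A match is a description of the sequence and not evidence of binding. An absent match holds only for the window searched.

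The targeted gene was checked first. Trp63 stood at 46.8 and 161 CPM (counts scaled to library size with TMM factors) for WT and 12.8 and 25.5 for cKO, at 10 days and 5 weeks in that order, which is also the order of every pair of values below. Total counts per library were 31714181 to 79122250, with the WT library at 5 weeks the deepest.

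Mitosis genes were lower in the cKO libraries across almost every role. Summed over the 45 genes, the level was 447 and 726 CPM for WT and 169 and 327 for cKO. The WT sum was thus 2.64 times the cKO sum at 10 days and 2.22 times at 5 weeks. Abundant members weigh most in a sum, and Bub3 and Pttg1 held 35.4 and 24.5 CPM of the cKO sum at 10 days. Without Pttg1 the sums were 437 and 716 CPM for WT and 145 and 323 for cKO. The fitted log2 fold change (cKO against WT, time point held constant) had a median of -1.63 over the members, with quartiles of -2.02 and -1.14. Over all genes tested the median was -0.01, with quartiles of -0.29 and 0.32. The fitted level was at least 4-fold lower in cKO for 13 members, between 2-fold and 4-fold lower for 23, lower by less for 7, and higher for 2 (Aurka and Pttg1).

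By edgeR's quasi-likelihood test with Benjamini-Hochberg adjustment over all genes, 0 of the 45 members passed an adjusted p of 0.05, against 0.0581% of all genes in either direction and 0.0529% lower in cKO. At an unadjusted p of 0.05, 36 of 45 were lower in cKO and 0 higher, against 5.8% of all genes lower and 5.8% higher. Both cKO libraries lay below both WT libraries for 36 members, against 23.3% of all genes, and 33 members met both descriptions. DESeq2 called 25 of the 45 at an adjusted p of 0.05 (1.46% of all genes were called lower by it), limma-voom called 0 (0.132%), and edgeR without a filter on low counts called 32 (2.01% of all genes called lower). The count of 36 rests on holding time point constant. Without the time term it was 13 (5.83% of all genes). With 1 library left out and no time term it was 12 without WT at 10 days (7.93%), 3 without WT at 5 weeks (5.83%), 7 without cKO at 10 days (2.8%) and 38 without cKO at 5 weeks (2.99%).

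**Figure D1:**
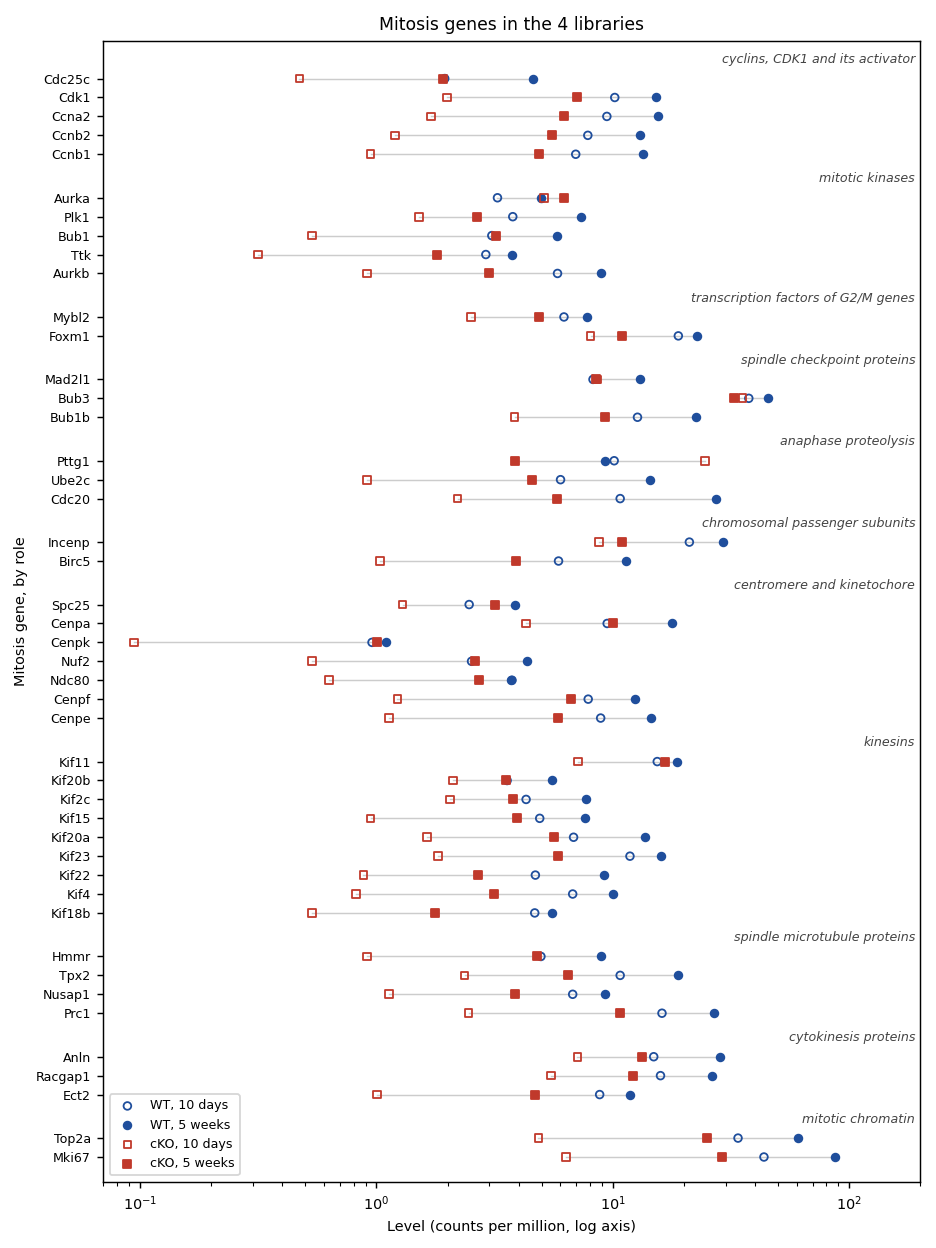
Level of each mitosis gene in each library, in CPM on a log axis, with genes grouped by role and ordered by fitted fold change within a role. Circles are WT and squares are cKO, open at 10 days and filled at 5 weeks, and the grey line spans the 4 values. The open square (cKO at 10 days) is the lowest point for 41 of the 45 genes (21.4% of all genes) and the filled circle (WT at 5 weeks) the highest for 42 (29.0%).

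The cyclins and their kinase were all lower in cKO. Cyclin B1 (Ccnb1), the main partner of CDK1 at mitotic entry, stood at 6.97 and 13.5 CPM for WT and 0.944 and 4.89 for cKO, with a log2 fold change of -2.12 (SE 0.461). Cyclin B2 (Ccnb2), its less essential relative, stood at 7.84 and 13.0 CPM against 1.20 and 5.51 CPM. Cyclin A2 (Ccna2), which serves both S phase and mitotic entry, stood at 9.44 and 15.6 CPM against 1.70 and 6.19 CPM. In all of them both cKO libraries lay below both WT libraries (23.3% of all genes), and cKO at 10 days was the lowest library (21.4%). Cdk1 itself, the catalytic subunit, was at 10.2 and 15.3 CPM against 1.98 and 7.04 CPM (log2 fold change -1.72, SE 0.410). Cdc25c, the phosphatase that activates CDK1, was the scarcest of these genes, at 1.95 and 4.58 CPM against 0.472 and 1.91 CPM. Its exons overlap those of Gm3550 on the opposite strand, and Gm3550 was at 13.7 and 9.07 CPM for WT and 10.2 and 1.30 for cKO. Each of the 5 had an unadjusted p under 0.05, a level at which 5.8% of all genes were lower in cKO. Per kilobase of annotated exon, Ccnb2 had the highest level of them, with a mean over the libraries of 4.50 CPM per kilobase against 1.56 for Ccnb1.

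The values of the Aurora kinases lay on opposite sides of 0, a difference between genes that was not tested. Aurora B (Aurkb), the kinase of the chromosomal passenger complex that corrects faulty attachments, stood at 5.84 and 8.93 CPM for WT and 0.913 and 3.0 for cKO (log2 fold change -2.09, SE 0.433, unadjusted p = 0.0036). Aurora A (Aurka), the centrosomal kinase of spindle assembly, stood at 3.25 and 4.97 CPM for WT and 5.10 and 6.22 for cKO (log2 fold change 0.48, SE 0.343, unadjusted p = 0.213). Aurka was the only member with both cKO libraries above both WT libraries, an arrangement that 22.6% of all genes showed, and its p gives no call. The genes lie apart, Aurka on chromosome 2 (172356190 to 172370535) and Aurkb on chromosome 11 (69045647 to 69051664) in GRCm38. TPX2, the spindle protein that activates Aurora A, did not follow Aurka: Tpx2 stood at 10.7 and 19.0 CPM against 2.36 and 6.45 CPM (log2 fold change -1.86, SE 0.324).

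The other mitotic kinases were lower in each cKO library than in the WT library of its time. Polo-like kinase 1 (Plk1), which acts from mitotic entry to cytokinesis, was at 3.77 and 7.36 CPM for WT and 1.51 and 2.65 for cKO (log2 fold change -1.40, SE 0.362). Ttk (MPS1), the kinase that starts checkpoint signalling, was at 2.90 and 3.75 CPM against 0.315 and 1.80 CPM, where the lowest value rests on 10 counts. Bub1, a checkpoint kinase of the kinetochore, was at 3.08 and 5.82 CPM against 0.535 and 3.21 CPM. In Bub1 the genotypes overlapped by a small margin, since cKO at 5 weeks lay above WT at 10 days.

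The transcription factors of the program had smaller fitted differences than many other members, a comparison that was not tested. Foxm1 stood at 18.9 and 22.7 CPM for WT and 8.06 and 11.0 for cKO, a log2 fold change of -1.14 (SE 0.250, unadjusted p = 0.0047). B-MYB (Mybl2) stood at 6.21 and 7.78 CPM against 2.52 and 4.89 CPM (log2 fold change -0.98, SE 0.361). For both, WT lay above cKO in every pairing, as in 23.3% of all genes, and the fold was closer to 2 than to 4. Exons of Foxm1 overlap those of Tex52 on the same strand, so its counts are less certain.

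The checkpoint proteins had fitted differences of unlike size, which were not tested against each other. Bub1b (BUBR1), which inhibits the anaphase promoting complex directly, stood at 12.7 and 22.4 CPM for WT and 3.84 and 9.28 for cKO (log2 fold change -1.49, SE 0.289, unadjusted p = 0.0026). Bub3, which carries BUB1 and BUBR1 to kinetochores, stood at 37.6 and 45.5 CPM against 35.4 and 32.5 CPM, with a log2 fold change of -0.29 (SE 0.221, unadjusted p = 0.245). Mad2l1 (MAD2), the core inhibitor of CDC20, stood at 8.24 and 13.0 CPM against 8.63 and 8.45 CPM (log2 fold change -0.28, SE 0.320, unadjusted p = 0.417). For Bub3 both cKO libraries lay below both WT libraries (23.3% of all genes), by 1.06-fold at 10 days and 1.40-fold at 5 weeks. For Mad2l1 the genotypes overlapped, and cKO was 1.53-fold lower at 5 weeks. Bub3 was also among the most abundant members per length, at 5.39 CPM per kilobase.

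The genes of anaphase proteolysis held both the smallest and the largest p of the set. Cdc20, the activator of the anaphase promoting complex, stood at 10.7 and 27.3 CPM for WT and 2.20 and 5.83 for cKO. WT exceeded cKO 4.80-fold at 10 days and 4.65-fold at 5 weeks, and the log2 fold change was -2.25 (SE 0.284, unadjusted p = 0.000307, adjusted p = 0.114 in edgeR). Its exons overlap those of Elovl1 on the opposite strand, and Elovl1 was at 76.1 and 85.4 CPM for WT and 68.7 and 66.8 for cKO. Ube2c, the ubiquitin-conjugating enzyme of the same complex, stood at 6.01 and 14.4 CPM against 0.913 and 4.57 CPM (log2 fold change -2.15, SE 0.408). Both genes were lower in each cKO library than in either WT library, as were 23.3% of all genes.

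Pttg1, which encodes securin, the inhibitor of separase that CDC20 sends for destruction, was more than 2-fold apart between genotypes in opposite directions at the time points, as no other member was. At 10 days WT had 10.1 CPM and cKO 24.5. At 5 weeks WT had 9.28 CPM and cKO 3.86. The level was thus 2.41-fold higher in cKO at 10 days and 2.39-fold lower at 5 weeks, and the fitted log2 fold change over both was 0.02 (SE 0.756). These are 778 counts in cKO at 10 days against 349 in WT, and 131 against 713 at 5 weeks. Pttg1 lies on chromosome 11 (43420250 to 43426251, minus strand), its exons overlapped no other annotated gene, and the table held no pseudogene named after it. No replicate exists within a time point, so the crossing has no test.

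Subunits of the chromosomal passenger complex were lower in cKO. Survivin (Birc5), which targets the complex to centromeres, stood at 5.89 and 11.4 CPM for WT and 1.04 and 3.89 for cKO (log2 fold change -2.0, SE 0.403). Incenp, its scaffold, stood at 21.1 and 29.1 CPM against 8.72 and 11.0 CPM (log2 fold change -1.34, SE 0.240). With Aurkb these genes make up the enzyme and its scaffold and targeting subunit. All had both cKO libraries below both WT libraries, as did 23.3% of all genes.

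Of the 7 centromere and kinetochore genes, 4 were lower in cKO at an unadjusted p of 0.05, against 5.8% of all genes. Cenpe, the kinesin that aligns chromosomes, stood at 8.88 and 14.6 CPM for WT and 1.13 and 5.89 for cKO (log2 fold change -2.09, SE 0.501). Cenpf, a large protein of the outer kinetochore, stood at 7.87 and 12.4 CPM against 1.23 and 6.63 CPM. Cenpa, the histone H3 variant that marks centromeres, had a smaller difference, at 9.46 and 17.7 CPM against 4.28 and 9.99 CPM (log2 fold change -0.98, SE 0.288). Among the microtubule-binding NDC80 complex, Ndc80 was at 3.75 and 3.71 CPM against 0.630 and 2.71 CPM, with an unadjusted p of 0.0702. Its partner Nuf2 was at 2.53 and 4.35 CPM against 0.535 and 2.62 CPM (unadjusted p = 0.0369), and Spc25 at 2.47 and 3.84 CPM against 1.29 and 3.18 CPM (unadjusted p = 0.203). Thus 1 of these 3 subunits reached an unadjusted p of 0.05, and in each the genotypes were closer at 5 weeks.

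Cenpk, of the constitutive centromere network, was the scarcest member, at 0.958 and 1.09 CPM for WT and 0.0944 and 1.0 for cKO. The value in cKO at 10 days is 3 counts, against 33 in WT, a ratio of 0.0986 with an exact 95% interval of 0.0193 to 0.314 that covers counting error only. At 5 weeks the genotypes were nearly level. Exons of Cenpk overlap those of Ppwd1 on the opposite strand, and Ppwd1 was at 12.3 and 10.6 CPM for WT and 9.88 and 11.7 for cKO.

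Of the 9 kinesins, 7 were lower in cKO at an unadjusted p of 0.05, against 5.8% of all genes. For 8 of them both cKO libraries lay below both WT libraries, against 23.3% of all genes. Kif18b, which trims astral microtubules, had the lowest log2 fold change of all members, -2.33 (SE 0.512), with 4.67 and 5.56 CPM for WT and 0.535 and 1.77 for cKO. The chromokinesin Kif4 stood at 6.76 and 10.0 CPM against 0.818 and 3.15 CPM (log2 fold change -2.31, SE 0.469). Kif22, another chromokinesin, stood at 4.70 and 9.16 CPM against 0.881 and 2.68 CPM (log2 fold change -2.07, SE 0.388). These genes sit at the lower end of the set. Kif23, the motor of the central spindle, was at 11.8 and 16 CPM against 1.83 and 5.86 CPM, and Kif20a, which brings the passenger complex to the midzone, at 6.82 and 13.6 CPM against 1.64 and 5.63 CPM. Kif15 and the microtubule depolymerase Kif2c had log2 fold changes of -1.62 and -1.05.

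Kif11 and Kif20b were the kinesins that missed an unadjusted p of 0.05, each at 0.102. Kif11 (Eg5), the motor that separates spindle poles, was at 15.4 and 18.6 CPM for WT and 7.11 and 16.6 for cKO, with log2 ratios of -1.11 and -0.17. Kif20b was at 3.57 and 5.52 CPM against 2.11 and 3.53 CPM.

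Spindle and midzone proteins were lower in cKO throughout. Prc1, which bundles antiparallel microtubules, stood at 16.1 and 26.9 CPM for WT and 2.46 and 10.7 for cKO (log2 fold change -2.0, SE 0.415). Nusap1, which stabilises spindle microtubules, was at 6.76 and 9.24 CPM against 1.13 and 3.86 CPM, and Hmmr at 4.96 and 8.95 CPM against 0.913 and 4.77 CPM. For the last of these the genotypes were almost touching, with cKO at 5 weeks just under WT at 10 days.

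Among cytokinesis genes, Ect2, the exchange factor that activates RhoA at the cleavage furrow, had one of the largest differences at 10 days. It stood at 8.80 and 11.8 CPM for WT and 1.01 and 4.68 for cKO, 8.40-fold lower at 10 days and 2.51-fold lower at 5 weeks. Racgap1, its partner at the central spindle, was at 15.9 and 26.3 CPM against 5.48 and 12.2 CPM, and Anln, an actin scaffold of the furrow, at 14.9 and 28.4 CPM against 7.08 and 13.3 CPM. Anln differed by about the same fold at both time points, 2.10 and 2.13.

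Mki67 (Ki-67), which coats mitotic chromosomes, had the highest mean CPM over the 4 libraries, though Bub3 was above it in both cKO libraries. Mki67 stood at 43.6 and 87.2 CPM for WT and 6.33 and 29.1 for cKO. Topoisomerase II alpha (Top2a), which untangles sister chromatids, stood at 33.9 and 60.7 CPM against 4.85 and 25.1 CPM. Their log2 fold changes were -2.17 (SE 0.354) and -2.02 (SE 0.438). Per kilobase of exon their means over the 4 libraries were 4.13 and 3.45 CPM per kilobase. Cdc20 had the highest such mean, 6.16, which the WT libraries carry. In cKO it was at 1.18 and 3.12 CPM per kilobase, below Bub3 at 5.05 and 4.63.

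The size of the genotype difference was next compared between time points. The median log2 ratio of cKO to WT was -2.34 at 10 days and -1.24 at 5 weeks over the members, and 0.00 and -0.01 over all genes. At least 2-fold lower levels in cKO were seen for 39 members at 10 days (7.45% of all genes) and for 30 at 5 weeks (6.54% of all genes). In 42 members the ratio was below 0 at both time points, as in 30.4% of all genes, and in 38 of these it was lower at 10 days than at 5 weeks, as in 11.6% of all genes. For 23 members the log2 ratio was higher at 5 weeks by 1 or more, against 10.4% of all genes. There is 1 library per genotype and time point, so the change of the ratio with time has no test. The main fit counts this change as error.

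Members differed in how far the ratio moved. In 7 members the log2 ratios at the 2 time points lay within 0.2 of each other. They were Cdc20 (-2.26 and -2.22), Kif2c (-1.05 and -1.03), Anln (-1.07 and -1.09), Incenp (-1.27 and -1.40), Plk1 (-1.30 and -1.46), Foxm1 (-1.23 and -1.04) and Kif20b (-0.75 and -0.64). At the other end were Cenpk (-2.84 and -0.12), Pttg1 (1.27 and -1.26), Ndc80 (-2.49 and -0.45), Ttk (-3.03 and -1.04), Ect2 (-3.07 and -1.33) and Cenpf (-2.64 and -0.90). Low counts in cKO at 10 days bear on this comparison, since 22 members held under 50 counts there and 6 held under 20.

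**Figure D2:**
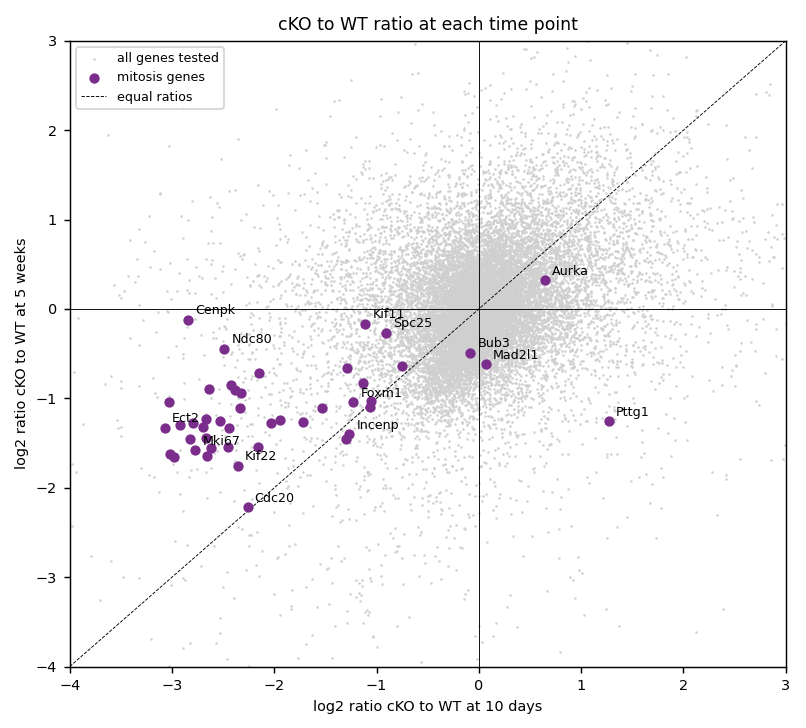
Log2 ratio of cKO to WT at 10 days (horizontal) and at 5 weeks (vertical) for the 45 mitosis genes (purple) and all genes tested (grey), with 290 grey genes outside the axes. Most members lie left of and above the dashed line of equal ratios, with a median of -2.34 against -1.24, while Cdc20 lies on it, Aurka is above 0 on both axes and Pttg1 (1.27 and -1.26) and, close to the vertical axis, Mad2l1 (0.06 and -0.62) are at lower right.

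Within a genotype, most members were at a higher level at 5 weeks than at 10 days. In WT the median log2 ratio of 5 weeks to 10 days was 0.71, and 43 of 45 members had a ratio above 0 (54.5% of all genes). In cKO it was 1.73, with 42 above 0 (50.3%). A level at least 2-fold higher at 5 weeks was seen for 3 members in WT (7.0% of all genes) and for 34 in cKO (6.02%). In the fit with genotype held constant, 28 members had an unadjusted p under 0.05 for higher levels at 5 weeks (3.09% of all genes). None passed an adjusted p of 0.05 in edgeR, where 0.0634% of all genes did, or in limma-voom (0.206%). DESeq2 called 4 members (1.01% of all genes) and edgeR without a filter 15 (1.91%). The largest time effect was that of Ube2c (log2 fold change 1.75, SE 0.404). The larger rise in cKO than in WT restates the change of the cKO to WT ratio between time points, since both use the same 4 values. Time after tamoxifen, age and library cannot be told apart here.

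Even at 5 weeks the cKO level of most members had not reached that of WT at 10 days. In 34 members the libraries stood in ascending order as cKO at 10 days, cKO at 5 weeks, WT at 10 days, WT at 5 weeks, against 6.46% of all genes. Ndc80, Mad2l1, Bub3 and Pttg1 were exceptions over time. Pttg1 was lower at 5 weeks in both genotypes. Ndc80 was level in WT (3.75 and 3.71 CPM) and higher at 5 weeks in cKO, whereas Mad2l1 and Bub3 were higher at 5 weeks in WT and level or lower in cKO.

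**Figure D3:**
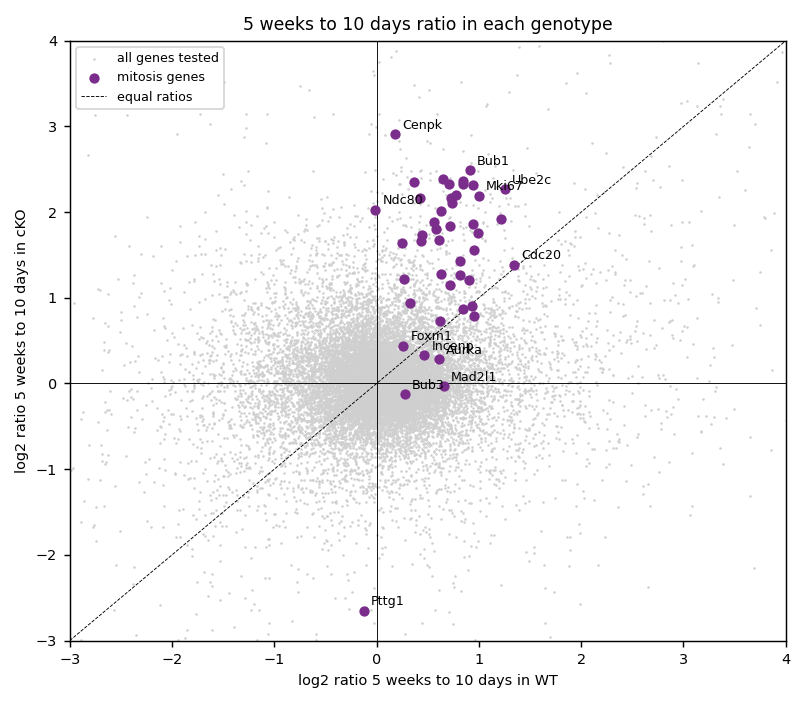
Log2 ratio of 5 weeks to 10 days in WT (horizontal) and in cKO (vertical) for the 45 mitosis genes (purple) and all genes tested (grey), with 274 grey genes outside the axes. The members cluster in the upper right above the dashed line of equal ratios, with medians of 0.71 in WT and 1.73 in cKO, and Pttg1 lies far below 0 in cKO.

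Other genes of the mitotic machinery were then examined in lists drawn from textbook knowledge, but chosen with earlier results of these data known. No gene of any of these lists passed an adjusted p of 0.05 in edgeR. The counts at an unadjusted p of 0.05 that follow stand beside 5.8% of all genes lower and 5.8% higher. Of the other kinetochore genes 8 of 31 were lower at an unadjusted p of 0.05 and 0 higher, with a median log2 fold change of -0.83. Cenpm (-2.04) and Kntc1 (-1.97), a checkpoint protein, were lowest, while the abundant Zwint, Hjurp and Zw10 were near 0 (-0.05, -0.15 and -0.13). Cenpq (0.20) and Ska2 (0.15) were the highest. Of the other spindle genes 11 of 22 were lower and 0 higher (median -0.96), from the passenger subunit Cdca8 (-2.08) and Cdca3 (-2.05) to Haus8 (-0.03) and the abundant Ckap5 (-0.02), Numa1 (-0.13) and Mad1l1 (-0.43). Other cytokinesis genes had 7 of 13 lower and 0 higher (median -1.15). There Iqgap3 stood at 18.6 and 17.1 CPM for WT and 1.23 and 6.98 for cKO, and Pimreg had a log2 fold change of -2.52. RhoA and the membrane scission genes Chmp4b and Vps4a, which serve many processes outside division, had 0.16, 0.01 and 0.02, and Kif13a had -0.37.

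The remaining lists were mixed. Of 15 genes of the anaphase promoting complex and its activators and inhibitors, 1 (Ube2s, -0.49) was lower at an unadjusted p of 0.05 and 0 higher, near the share over all genes, and the median was -0.16. Core subunits Anapc1, Anapc2 and Anapc5 had log2 fold changes of 0.07, -0.18 and -0.09, Fzr1, the activator used after mitosis, had -0.41, and Cdc27 and Fbxo5 had 0.42 and 0.35. Of 19 condensin and cohesin genes 5 were lower and 0 higher (median -0.31). The condensin gene Ncapg (-1.69) and the separase gene Espl1 (-1.45) were lowest, and the cohesin genes Smc1a (-0.27), Rad21 (-0.09), Stag2 (0.39) and Pds5b (0.28) and the condensin II gene Ncaph2 (-0.36) had values on both sides of 0. Other mitotic entry and exit genes had 9 of 17 lower and 0 higher (median -0.89). The kinase genes Melk (-2.35) and Pbk (-2.12) were lowest, and Wee1, the inhibitor of CDK1, Ensa and Ppp2r2d were at 0.08, -0.14 and 0.13.

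S phase genes were also lower in cKO, in part. Of 25 tested, 13 were lower at an unadjusted p of 0.05 and 0 higher, with a median log2 fold change of -0.72. For 22 of the 25, both cKO libraries lay below both WT libraries, against 23.3% of all genes. Thymidine kinase (Tk1) was at 7.17 and 17.1 CPM for WT and 2.20 and 4.71 for cKO, and Uhrf1, which maintains DNA methylation, at 19.9 and 25.8 CPM against 3.93 and 11.1 CPM. The more abundant Pcna (-0.20), Mcm4 (-0.05) and Rrm1 (-0.54) differed less. The medians of -0.72 for S phase and -1.63 for mitosis genes are set side by side without a test of their difference.

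**Figure D4:**
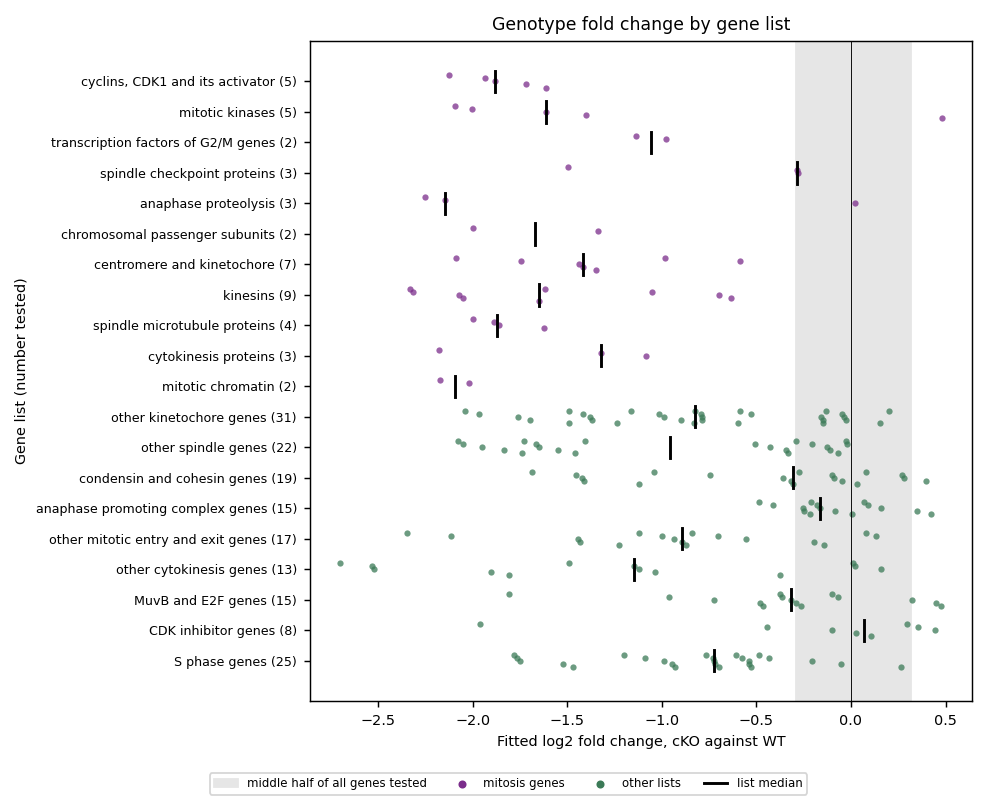
Fitted log2 fold change of cKO against WT (horizontal) for each gene, with 1 row per list, mitosis genes by role in purple and other lists in green. Bars are list medians, and the grey band is the interquartile range of all genes tested (-0.29 to 0.32). The purple rows lie mostly between -2.33 and -0.59 apart from Bub3, Mad2l1, Aurka and Pttg1, and the anaphase promoting complex genes lie around -0.16.

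Markers of the cell types in the sort were measured in the same libraries. Over all genes, 5.8% were lower in cKO and 5.8% higher at an unadjusted p of 0.05, the share to set beside each count below. Basal markers summed to 5865 and 16792 CPM for WT and 2269 and 2420 for cKO, with 5 of 10 lower at an unadjusted p of 0.05. Among the most abundant, these included Krt5 (-4.05) and Krt14 (-3.17) but not Acta2 (-0.43). The rest of the 5, named after their values were seen, were Krt17, Lgals7 and Trp63, the targeted gene. Acta2, Myh11, Mylk, Oxtr and Cnn1 had fitted values from -0.43 to 0.06. Each of these was lower in cKO at 10 days and higher at 5 weeks. Epidermal differentiation markers summed to 793 and 4132 CPM against 156 and 219 CPM, with 10 of 12 lower at that level. Of these 12, 4 also passed an adjusted p of 0.05 in edgeR, out of 10 genes called lower in the whole table. They were Krt13, Krt6b, Krtdap and Dsg3, named after their values were seen, with log2 fold changes of -6.21, -5.39, -4.68 and -4.79. Luminal markers summed to 8024 and 7454 CPM against 9360 and 7404 CPM, a sum that the abundant keratins Krt8, Krt18 and Krt19 (0.06, 0.07 and 0.01) dominate. Of the 10 luminal markers 0 were lower and 3 higher at an unadjusted p of 0.05, the latter being Prlr (0.82), Pgr (0.66) and Aldh1a3 (0.55), named after their values were seen. Fibroblast markers summed to 40172 and 32288 CPM against 39240 and 61754 CPM, the highest of any list. Of the 10, 1 was higher in cKO at an unadjusted p of 0.05. Their log2 ratios of cKO to WT ran from -0.88 to 1.69 at 10 days and from 0.15 to 1.48 at 5 weeks. Markers higher in cKO at an unadjusted p of 0.05 numbered 7 of 10 for lymphocytes (21 and 23.9 CPM against 35.9 and 57.5 CPM), 2 of 9 for myeloid cells, 3 of 8 for endothelium and, outside the sorted lineages, 3 of 8 for adipocytes (586 and 581 CPM against 1122 and 1461 CPM). No erythroid marker of the 5 tested and no dissociation response gene of 10 reached that level, and the latter summed to 21086 and 25669 CPM against 37194 and 29268 CPM. The adipocyte sum was dominated by Lpl and Fabp4. Other adipocyte genes are named after their values were seen. The 3 at an unadjusted p of 0.05 were Fabp4, Lpl and Cd36, while Cidec, Adipoq, Plin1, Car3 and Lep did not reach it. Cidec was at 0.261 and 0.377 CPM for WT and 74.2 and 0.589 for cKO. Adipoq was at 0.261 and 0.247 CPM against 23.7 and 0.471 CPM. Plin1, Car3 and Fabp4 were also highest in cKO at 10 days, Lpl and Cd36 in cKO at 5 weeks, and Lep in WT at 5 weeks. No listed marker was at 0 in all 4 libraries. The part of these differences in cell make-up in the mitosis result was not tested.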

How the data were processed

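RNA was sequenced from 4 libraries of sorted mouse mammary cells, and the authors deposited estimated counts per gene, made with Salmon on GRCm38 per the submitters' processing notes. The Salmon version, annotation and use of strand are not given in the sources used here. Expected counts were rounded to whole numbers. All 54393 identifiers matched GENCODE M21.

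Genes passing filterByExpr (minimum count 10) were fitted with edgeR 4.0.16, TMM scaling and its robust quasi-likelihood test on genotype and time point, with Benjamini-Hochberg adjustment over 18917 genes. The time term pairs libraries by the labels' time point and leaves 1 residual degree of freedom. Ratios within a time point or genotype were taken on log2 CPM (prior count 2) and have no test. The same code was tested on simulated counts. Alternatives were other scalings, no filter, DESeq2 1.42.0, limma-voom 3.58.1, no time term and leaving out each library.

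The members and lists were chosen with earlier results of these data known. All members were described. In pathway lists the genes eligible to be named were the 3 most abundant and, with a mean of at least 1 CPM, the 2 lowest and 2 highest in fold change, and in marker lists the 3 most abundant. Of the members, 13 share exon sequence with another annotated gene, 11 of them on the opposite strand, and 4 have a pseudogene named after them, with 0 to 10 counts. The 11 are Ccna2, Cdc25c, Plk1, Cdc20, Ube2c, Cenpk, Kif4, Kif20a, Kif22, Nusap1 and Prc1.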

Additional observations from a re-analysis of the deposited data

Results flagged for a closer look

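Each result here compares single libraries and was not tested. The log2 ratio of cKO to WT changed sign between time points for Pttg1, from 1.27 at 10 days to -1.26 at 5 weeks, a difference of -2.53. It did so by less for Mad2l1, from 0.06 to -0.62, a difference of -0.68. The log2 ratio of 5 weeks to 10 days had opposite signs in the genotypes for 3 members. For Ndc80 it was -0.01 in WT and 2.03 in cKO, a difference of 2.04. For Mad2l1 it was 0.65 in WT and -0.03 in cKO, a difference of -0.68, which is the same quantity as its difference above. For Bub3 it was 0.28 in WT and -0.13 in cKO, a difference of -0.40.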

How the results depend on the processing

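The direction of the members' median held under every alternative run, while the number of calls did not. Genes called for genotype at an adjusted p of 0.05 numbered 11 in edgeR, 5 with DESeq2 size factors, 3 with upper-quartile factors, 1235 with no filter on low counts, 513 in DESeq2's test, 29 in limma-voom and 0 without the time term that serves as replicate block, and 0 to 61 with 1 library left out. Members among them numbered 0, or 32 with no filter and 25 in DESeq2's test, and those 25 are all within the 32. With no filter, 33332 genes were fitted and the estimated prior degrees of freedom were infinite. For time, genes numbered 12, or 638 with no filter, 192 in DESeq2 and 39 in limma-voom, and members 15 with no filter and 4 in DESeq2. Members lower in cKO at an unadjusted p of 0.05 numbered 36, or 13 without the replicate block, and 3 to 38 with 1 library left out. The median log2 fold change was -1.63, and -2.80 to -0.93 with 1 library left out, where genotype and time are no longer separated. The lowest of these came without cKO at 5 weeks and the highest without cKO at 10 days. With 1 library left out, the log2 fold change of Pttg1 went from -1.34 (without cKO at 10 days) to 1.31, and that of Mad2l1 from -0.61 to 0.052 (without WT at 5 weeks). The cause of these differences was not tested. The count of members with both cKO libraries below both WT libraries uses no fitted test. Low counts limit cKO at 10 days most, where the median member had 52 counts.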

Other observations

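CDK inhibitor genes, which hold the cycle back, had fitted differences in both directions. The 8 CDK inhibitor genes tested had a median log2 fold change of 0.07. At an unadjusted p of 0.05 in edgeR 1 was lower in cKO (5.8% of all genes) and 0 were higher (5.8%). The 1 was Cdkn3, a phosphatase gene that is itself expressed in dividing cells, at 0.929 and 2.41 CPM for WT and 0.126 and 0.913 for cKO. Cdkn1a, which encodes p21, was at 222 and 401 CPM for WT and 312 and 248 for cKO, with a log2 fold change of -0.10. That value averages log2 ratios of 0.49 at 10 days and -0.69 at 5 weeks. Cdkn2b had 0.27 and -1.13, and Cdkn1c (p57) had -0.25 and 1.13. Cdkn1b (p27) had a fitted value of 0.30. Each ratio within a time point compares single libraries and has no test.

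The 15 MuvB, E2F and pocket protein genes had a median log2 fold change of -0.32. At an unadjusted p of 0.05 in edgeR 2 were lower in cKO (5.8% of all genes) and 0 higher (5.8%). They were E2f8 (-1.81) and E2f7 (-0.96), the atypical E2F repressors that are made late in S phase. The MuvB subunit genes Lin52 (0.47) and Rbbp4 (-0.07) and the pocket protein genes Rb1 (0.32) and Rbl2 (0.45) did not reach that level. E2F activity was not measured.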
